A study of Mus musculus with 6 samples.

Results

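The set described here has 10 named genes: the Aurora kinases Aurka and Aurkb, the Polo-like kinases Plk1, Plk3 and Plk4, the NIMA-related kinase Nek2, the chromosomal passenger proteins Birc5, Incenp and Cdca8, and the spindle factor Tpx2. They were chosen by name, and every probe set whose platform annotation gives one of these symbols and no other was taken. This gave 15 of the 20380 probe sets with 1 symbol, for 9 of the 10 genes, because no probe set named Cdca8. Transcripts were measured in 6 lines of mouse embryo fibroblasts, primary cells grown from embryos, with 1 Affymetrix array for each line.

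The 3 chromosomally unstable lines were 2 BubR1 H/H lines, in which both copies of the gene of the spindle checkpoint kinase BubR1 are hypomorphic, and 1 CDC20 AAA/AAA line, whose mutated CDC20 allele the labels also call hypomorphic. The 3 stable lines were 2 BubR1 +/+ lines and 1 CDC20 +/+ line, and in each line the other of the 2 loci was wild type. No drug or transgene is named, and every line was grown for 2 passages in the same medium. The sample titles carry the number 9515, 9938 or 10074, each shared by 1 unstable and 1 stable line, which form a pair; the BubR1 lines are pairs 9515 and 9938 and the CDC20 lines pair 10074. Each line is a single culture, and the labels do not say whether lines of a pair came from separate embryos of a litter, so the p-values cover only the spread among these 6 cultures. Strain and embryo age were not given in the sources used here.

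Aurora, Polo-like and NIMA-related kinases phosphorylate proteins of the spindle, the centrosome and the chromosomes during cell division. Aurora A works at spindle poles, where Tpx2 binds and activates it; Aurora B works at centromeres and the central spindle as the enzyme of the chromosomal passenger complex, in which Incenp is the scaffold and Birc5 (survivin) and Cdca8 (borealin) direct the complex to chromosomes. In cycling cells the transcripts of most of these genes accumulate in G2 and mitosis, and a non-dividing culture holds little of them. The level of such a transcript in a bulk culture thus depends on how many cells are dividing, and on these arrays fewer expressing cells and less RNA per cell cannot be told apart.

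Arrays had medians of 6.156 to 6.197 on the log2 scale of the deposited values. Bub1b, which encodes BubR1, measured 6.15 (pair 9515), 6.43 (9938) and 7.00 (10074) in unstable lines, against 7.81, 8.51 and 7.61 in stable lines, so that it was lower in every unstable line and by the most in the 2 lines labelled H/H. All 10 fibroblast markers were present, with summed linear levels of 50350 to 52440 in unstable and 48930 to 54970 in stable lines. All 12 macrophage and leukocyte markers were also present, with sums of 5856 to 30830 in unstable and 7992 to 29580 in stable lines; both lines of pair 9515 lay lowest, at 5856 and 7992. Pecam1 and Cdh5 of the endothelial, Epcam and Cdh1 of the epithelial, and Myod1, Myog and Actc1 of the skeletal muscle markers were under a log2 value of 4, the floor used here, in every line. The other markers of these lists were not: Krt18 (5.93 to 7.02) and Des (5.36 to 6.70) were above the floor in every line. Krt8 (2.85 to 4.97), Kdr (3.95 to 4.31) and Tek (3.40 to 4.01) were above it in some lines only. Both lines of pair 9938 expressed Xist, at 10.70 and 11.16, and not the Y-linked Eif2s3y, at 2.07 and 2.20, while the other 4 lines showed the opposite. Each pair was thus of 1 sex, and pair 9938 differed from pairs 9515 and 10074, which were alike.

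Promoter windows, running from 250 bases before to 50 bases after the annotated start, were found for 7 of the 10 genes in RefSeq (GRCm38.p6): Aurka, Plk1, Plk3, Plk4, Nek2, Birc5 and Cdca8. They were searched on both strands for the cell-cycle homology region (CHR, as TTTGAA or TTCGAA), the CCAAT box (as CCAAT) and an E2F site (as TTGGCGC or TTCCCGC or TTGCCGC or TTCGCGC), which are elements known from promoters of cell-cycle genes. A CHR match stood in 3 of the 7 windows (Aurka, Plk1 and Cdca8), against 19.2% of all 32851 windows in the table, a CCAAT match in 4 (Aurka, Plk1, Nek2 and Cdca8), against 37.4%, and an E2F match in 1 (Plk4), against 9.6%. In Cdca8 the CHR match shares a base with a CCAAT match on the other strand; no other matches overlapped. The windows of Birc5 and Plk3 held none of these letters. The 4 windows below are those of the tested kinases for which a window was found. The elements matched were the same in Aurka and Plk1 and differed in Nek2 and Plk4. Capitals mark the matches.
Aurka, chr2:172370521-172370820, minus strand: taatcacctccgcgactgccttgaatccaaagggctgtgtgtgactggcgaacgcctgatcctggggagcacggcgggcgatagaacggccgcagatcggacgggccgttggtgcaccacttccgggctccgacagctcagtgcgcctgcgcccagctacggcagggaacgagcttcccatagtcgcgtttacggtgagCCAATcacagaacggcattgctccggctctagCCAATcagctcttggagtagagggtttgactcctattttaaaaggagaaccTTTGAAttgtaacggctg
Plk1, chr7:122159185-122159484, plus strand: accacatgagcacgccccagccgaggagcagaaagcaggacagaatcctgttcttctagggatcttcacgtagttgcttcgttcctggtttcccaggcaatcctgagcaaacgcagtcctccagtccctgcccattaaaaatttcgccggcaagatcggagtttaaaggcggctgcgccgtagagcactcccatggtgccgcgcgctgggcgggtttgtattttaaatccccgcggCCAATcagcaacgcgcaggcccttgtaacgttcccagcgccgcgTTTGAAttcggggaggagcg
Nek2, chr1:191821223-191821522, plus strand: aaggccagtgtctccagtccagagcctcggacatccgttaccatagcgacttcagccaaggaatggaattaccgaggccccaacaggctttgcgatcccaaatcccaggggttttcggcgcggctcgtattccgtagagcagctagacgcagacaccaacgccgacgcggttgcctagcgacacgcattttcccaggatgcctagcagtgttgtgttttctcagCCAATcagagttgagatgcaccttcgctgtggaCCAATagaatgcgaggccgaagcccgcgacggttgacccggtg
Plk4, chr3:40799701-40800000, plus strand: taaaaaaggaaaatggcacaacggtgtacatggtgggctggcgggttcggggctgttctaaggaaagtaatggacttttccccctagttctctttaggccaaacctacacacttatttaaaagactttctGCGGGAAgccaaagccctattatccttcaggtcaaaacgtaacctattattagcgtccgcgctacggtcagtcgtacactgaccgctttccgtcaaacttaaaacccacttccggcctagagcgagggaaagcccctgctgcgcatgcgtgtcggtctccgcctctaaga

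In the Aurka window CCAAT began 51 and 19 bases before the start and TTTGAA 33 bases into the transcript. The Plk1 window held the same elements in the same order, with CCAAT 14 bases before the start and TTTGAA at base 31 of the transcript. Nek2 held only CCAAT, at 26 bases before the start and at base 8 after it, and Plk4 only TTCCCGC, on the other strand from 120 to 114 bases before the start. These are matches of letters and were not tested for binding.

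The comparison of unstable with stable lines asked how these kinases and their partners differ when chromosomes missegregate. All 8 genes that could be tested were lower on average in the unstable lines, as were 52.1% of all genes tested, by 1.32-fold (Incenp) to 1.68-fold (Aurkb), the median log2 difference being -0.56, beside -0.0087 for all 8382 genes tested. Of the 8, each taken by its brightest probe set, 7 were lower in the unstable line of all 3 pairs, against 19.3% of all genes tested. The exception was Tpx2. None passed the limma test (adjusted p = 0.999 for each, Benjamini-Hochberg over all genes), and 0 of 8382 genes did (0%). At an unadjusted p under 0.05 the count was 0 of 8 members and 359 genes, which is 4.28% of those tested.

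**Figure D1:**
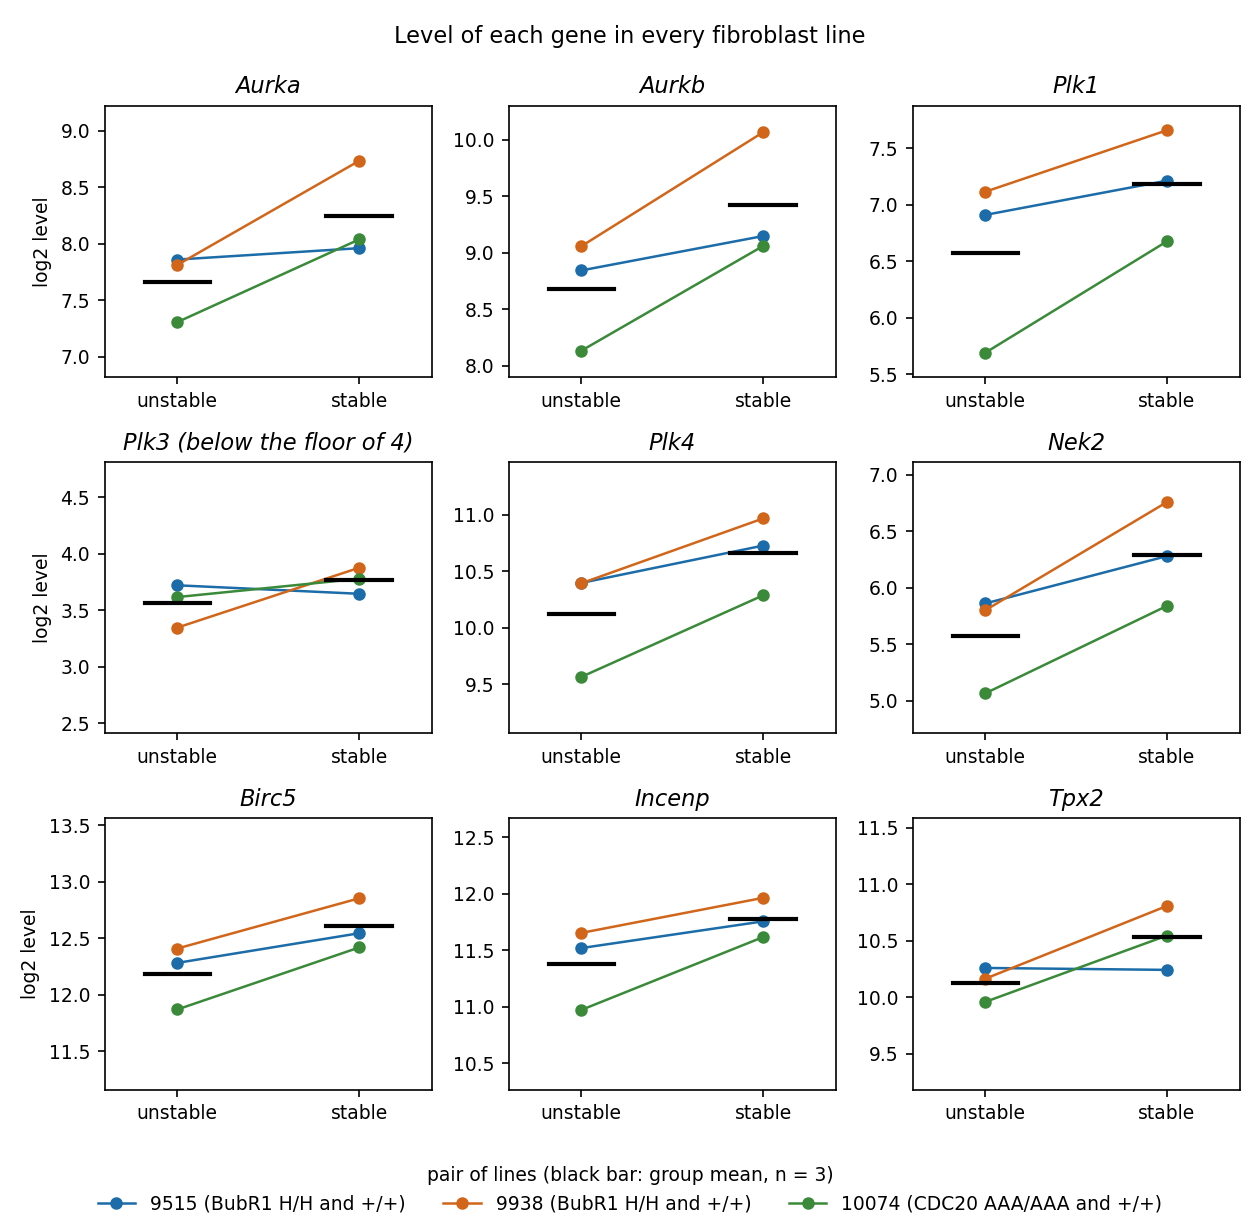
Log2 level (vertical axis) of the brightest probe set of each of the 9 measured genes in unstable (left) and stable (right) lines. Points are lines, coloured by pair and joined within a pair, and black bars are group means of 3 lines. Lines within a panel mostly slope upward to the stable line, the stable line of pair 9938 is the highest point in every panel, and in Plk3 all points lie below the floor of 4. Each panel spans the same 2.4 log2 units.

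Aurka, the spindle-pole kinase, measured 7.86, 7.81 and 7.31 in the unstable lines (9515, 9938, 10074, in this order), against 7.96, 8.73 and 8.04 in the stable lines. The groups did not overlap, but the unstable line of pair 9515 was only 0.10 below its stable partner. The mean was 7.66 ± 0.31 in unstable and 8.24 ± 0.43 in stable lines (SD, n = 3 each), a difference of -0.58 (SE 0.26). Tpx2, the activator of Aurora A, measured 10.26, 10.17 and 9.96 in unstable lines by its brighter probe set, against 10.24, 10.81 and 10.55 in stable lines. In pair 9515 this probe set showed no drop (0.017), whereas the second Tpx2 probe set differed by -0.44 in that pair, with -0.68 and -0.39 in pairs 9938 and 10074. The Tpx2 difference was -0.40 (SE 0.17), and its groups overlapped.

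Aurkb, the passenger complex kinase, had the largest mean difference of the 8. It measured 8.84, 9.057 and 8.13 in the unstable lines (9515, 9938, 10074, in this order), against 9.15, 10.065 and 9.059 in the stable lines. The groups did not overlap, but the unstable line of pair 9938 and the stable line of pair 10074 were nearly equal. The mean was 8.68 ± 0.48 in unstable and 9.42 ± 0.56 in stable lines (SD, n = 3 each), a difference of -0.75 (SE 0.35). The Aurkb probe set used for these values is of a type the platform marks as able to match several transcripts. A second Aurkb probe set, of a type the platform marks as open to cross-hybridisation, gave 7.255, 7.404 and 6.004 in unstable lines, against 7.277, 8.398 and 7.324 in stable lines. In pair 10074 its drop (-1.32) was the deepest of all 15 probe sets, but it showed hardly any in pair 9515 (-0.022), where the first Aurkb probe set differed by -0.30.

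Birc5, which encodes the passenger protein survivin, measured 12.28, 12.41 and 11.87 in unstable lines, against 12.54, 12.85 and 12.42 in stable lines. Its groups did not overlap, although the margin between the unstable line of pair 9938 and the stable line of pair 10074 was small (12.409 and 12.418). The difference was -0.42 (SE 0.19), or 1.34-fold. Incenp, the scaffold that activates Aurora B, measured 11.52, 11.65 and 10.97 in unstable lines by its brightest probe set, against 11.75, 11.96 and 11.61 in stable lines. That probe set is also of the type open to cross-hybridisation, and its groups overlapped. A second Incenp probe set without that mark gave 6.38, 6.59 and 6.01 in unstable lines, against 6.88, 7.30 and 6.79 in stable lines, so every unstable line lay below every stable line. The mean difference was -0.40 (SE 0.20) by the first and -0.67 (SE 0.20) by the second probe set, so the choice of probe set changed the size by more than 1.5 times; by the second the unadjusted p was 0.016 and the adjusted p 0.999 in a limma fit of every probe set. The third Incenp probe set lay below the floor in all lines.

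Plk1, the main mitotic Polo kinase, had the largest spread among unstable lines of all 15 probe sets (SD 0.77). It measured 6.91, 7.12 and 5.69 in the unstable lines (9515, 9938, 10074, in this order), against 7.21, 7.66 and 6.68 in the stable lines. The groups overlapped, since the stable CDC20 +/+ line lay below both BubR1 H/H lines. The difference was -0.61 with an SE of 0.43, the widest of the 8. Without the AAA/AAA line it was -0.17, and without that line the differences of Incenp (-0.19), Plk4 (-0.26), Birc5 (-0.26), Aurkb (-0.47) and Nek2 (-0.46) were also smaller by over 1.5 times. Without the stable line of pair 9938 the same held for Aurka (-0.34), Aurkb (-0.43), Tpx2 (-0.27) and Plk1 (-0.37). These fits kept the partner of the line left out, so differences in level between pairs entered them. Without both lines of pair 10074 the differences were -0.42 (Plk1), -0.27 (Incenp), -0.45 (Plk4), -0.35 (Birc5), -0.66 (Aurkb) and -0.69 (Nek2). Without both lines of pair 9938 they were -0.42 (Aurka), -0.615 (Aurkb), -0.285 (Tpx2) and -0.64 (Plk1). The Plk1 drop in pair 10074 (-0.99, or 1.98-fold) was the deepest among the tested genes' brightest probe sets in that pair. Plk4, the kinase that starts centriole duplication, measured 10.40, 10.39 and 9.57 in unstable lines, against 10.73, 10.97 and 10.29 in stable lines, a difference of -0.54 (SE 0.29). These levels are of the brightest of its 3 probe sets, which is of the type the platform marks as able to match several transcripts. The other 2 lay lower, with means of 5.88 and 5.67 in unstable and 6.27 and 6.26 in stable lines. Its 3 probe sets all showed lower values in the unstable lines of pairs 9938 and 10074 but did not share a direction in pair 9515, at -0.33, 0.029 and 0.16. Only by the brightest was Plk4 lower in all 3 pairs. Nek2, which acts in centrosome separation, measured 5.86, 5.80 and 5.06 in unstable lines, against 6.28, 6.76 and 5.84 in stable lines. It had the deepest drop of the 8 in pair 9515 (-0.42) and a difference of -0.72 (SE 0.31). Plk3, a Polo kinase linked to stress responses, lay below the floor on all 6 arrays, between 3.35 and 3.72 in unstable and between 3.65 and 3.88 in stable lines, and was not tested.

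**Figure D2:**
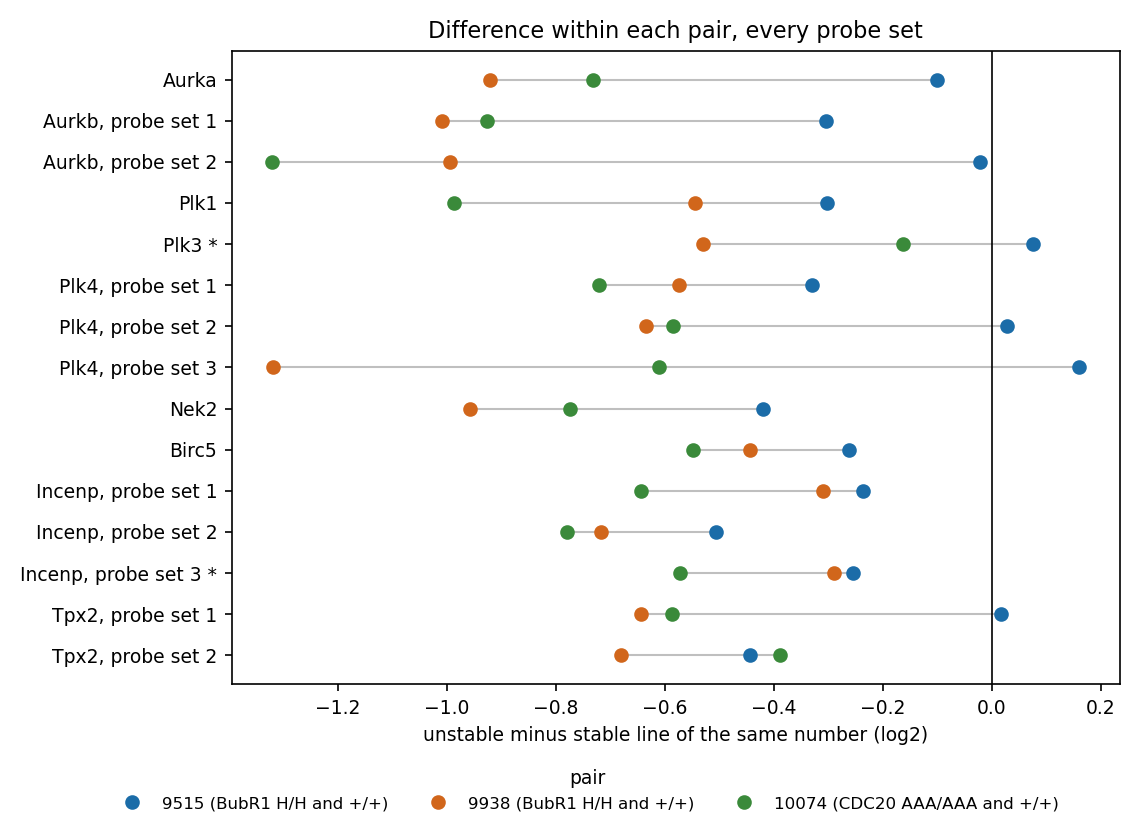
Unstable minus stable log2 difference (horizontal axis) within each pair for all 15 probe sets, listed in the order of the genes and numbered from the brightest; points are pairs and an asterisk marks probe sets below the floor. Pairs 9938 and 10074 lie left of 0 in all 15 probe sets, and pair 9515 lies nearest to 0 in 14 of them, with 4 probe sets above 0.

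The size of the difference depended on the pair. Over the 8 tested genes the median was -0.28 in pair 9515, -0.61 in pair 9938 and -0.73 in pair 10074, where the medians of all genes tested were 0.0010, -0.0030 and -0.027. All 8 were lower in pairs 9938 and 10074, against 50.4% and 54.5% of all genes tested, and 7 in pair 9515, against 49.5%. Of the 13 probe sets that passed the filter, each with values of at least 4 on all 6 arrays, 10 were lower in all 3 pairs, against 18.3% of all probe sets that passed it.

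The members shared their highest and lowest lines, while the order of the lines between them differed by gene. All 15 probe sets were highest in the stable line of pair 9938, and 14 were lowest in the unstable line of pair 10074; the exception was Plk3. Among all genes tested, 8.22% were both highest and lowest in these 2 lines, and all 8 tested members were. Counted singly, 20.1% of genes were highest in the stable line of pair 9938 and 18.6% lowest in the AAA/AAA line. The mean level of the 8, relative to each gene's mean over the 6 lines, was -0.072, -0.013 and -0.74 in the unstable lines (9515, 9938, 10074, in this order), against 0.17, 0.66 and -0.0036 in the stable lines. The 2 BubR1 H/H lines thus lay close to the CDC20 +/+ line, and each of them lay above it for 3 of the 8 genes. Among the groups of the 8 genes, 3 did not overlap, with unstable lines lower, against 6.41% of all genes tested. Each member's profile over the 6 lines correlated with the mean of the other 7 at r = 0.83 (Tpx2) to 0.99 (Birc5); these points share lines and pairs, so r is a description.

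With the pair number as a block, which takes out differences between pairs, the 8 members had unadjusted p-values of 0.0026 (Nek2) to 0.049 (Tpx2) in limma, so 8 of 8 lay under 0.05, against 12.2% of all genes tested. None passed after adjustment over all genes (adjusted p = 0.262 to 0.409 by limma), and again 0 of 8382 genes did. The count under 0.05 was 5 of 8 without pair 10074, beside 8.58% of all genes, and 6 of 8 without pair 9938, beside 8.65%. In the fit with no block, leaving out the AAA/AAA line brought the median difference to -0.29. Leaving out the +/+ line of pair 9938 brought it to -0.36. With both lines of a pair left out it was -0.71 (9515), -0.48 (9938) and -0.44 (10074), and with all lines -0.56.

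**Figure D3:**
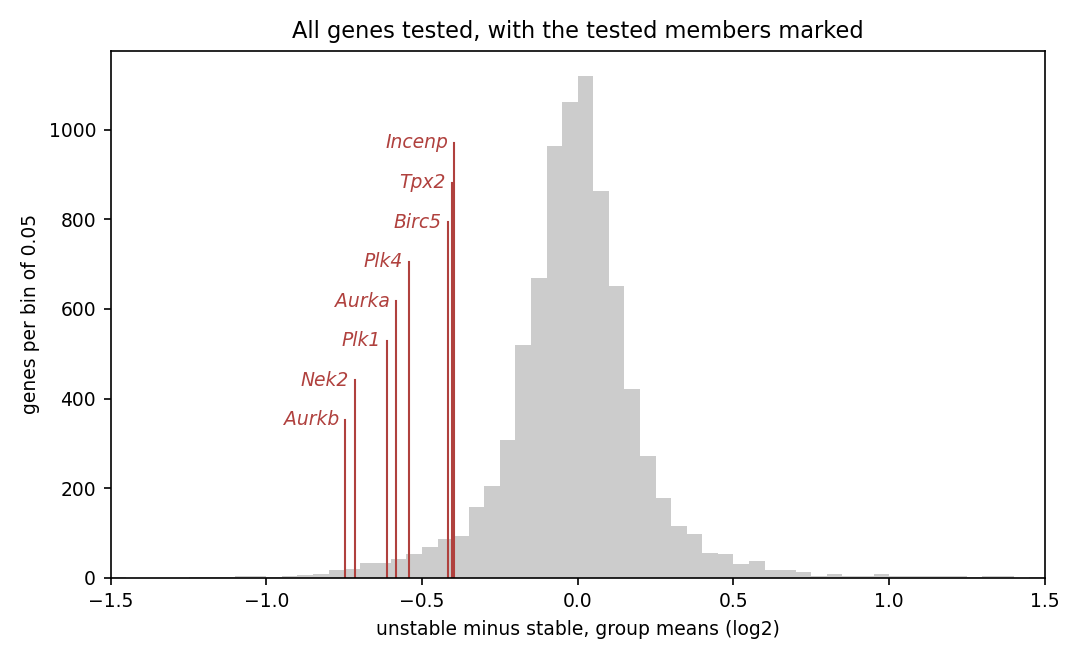
Histogram of the unstable minus stable log2 difference of group means for all 8382 genes tested (horizontal axis; vertical axis, genes per bin of 0.05); 11 genes lie outside the plotted range. Red lines mark the 8 tested members, from -0.75 (Aurkb) to -0.40 (Incenp), and their heights serve only to separate the names.

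The comparison of BubR1 H/H with BubR1 +/+ asked what goes with the hypomorphic allele alone. It uses lines of the comparison above and is no independent repeat of it. The 8 members differed by -0.69 (Nek2, SE 0.20) to -0.27 (Incenp, SE 0.13), and 7 of 8 were lower in both pairs, against 27.8% of all genes tested. None passed (limma adjusted p = 1.00 for each, 0% of 8382 genes). Plk4 at -0.45 (SE 0.13) and Nek2 had unadjusted p-values of 0.028 and 0.031, which makes 2 of 8 members under 0.05 beside 3.15% of all genes. With the pair as a block in a fit to these 4 lines, 5 of 8 members lay under 0.05 (limma unadjusted p 0.0127 to 0.174) beside 8.58% of all genes, and none passed after adjustment (adjusted p 0.506 to 0.709). The size of the BubR1 differences depended on the BubR1 +/+ lines, though leaving 1 of them out also broke its pair. Without that of pair 9938 they were -0.03 (Tpx2) to -0.45 (Nek2), with Aurka at -0.12, Aurkb at -0.20 and Plk1 at -0.20, and without that of pair 9515 they were -0.38 (Incenp) to -1.11 (Aurkb).

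In the CDC20 pair, with 1 AAA/AAA and 1 +/+ line and so no test of its own, the 8 members were 1.46-fold (Birc5) to 1.98-fold (Plk1) lower. Beside BubR1 pair 9938 alone, the drop was larger for Plk1, Plk4, Birc5 and Incenp. It was smaller for Aurka, Aurkb, Nek2 and Tpx2. Beside the mean of the BubR1 pairs, the drop was larger for all 8 members. The difference from that mean was 0.086 (Nek2, SE 0.35) to 0.56 (Plk1, SE 0.35) on the log2 scale. The test of that difference, from a 4-group limma fit in which each CDC20 line is assumed to vary like the others, called 0 of 8382 genes (0%), and the unadjusted p of the members was 0.18 to 0.82, so that 0 of 8 lay under 0.05 beside 1.59% of all genes. The spread in that fit comes from the 4 BubR1 lines alone, so these p-values carry no spread of CDC20 lines and do not show whether the 2 mutations differ. The macrophage and leukocyte markers differed most in pair 10074, with summed levels of 17220 in the AAA/AAA and 29580 in the +/+ line. In pair 9515 the sums were 5856 in the H/H and 7992 in the +/+ line. In pair 9938 they were 30830 in the H/H and 28450 in the +/+ line. The part of these markers in the members' differences was not tested.

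Partners and substrates of these kinases were taken from lists chosen by function. Of 8 tested genes that recruit Aurora B or are its substrates, 0 passed the test, with a median of -0.68. On means 8 were lower, against 52.1% of all genes tested, and 7 were lower in all 3 pairs, against 19.3%. Haspin, the kinase whose mark on histone H3 docks the passenger complex, measured 5.71, 6.25 and 5.47 in unstable lines, against 6.73, 7.17 and 6.15 in stable lines, or 1.84-fold lower. The Haspin drop was deepest in pair 9515 (-1.02), the pair in which each tested member differed least. Racgap1, a central spindle protein, differed by nearly the same amount in each pair (-0.70, -0.76 and -0.77), and Kif20a, the kinesin that carries the complex to the central spindle, by -0.67 (SE 0.17) on average.

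Of 9 tested partners and substrates of Polo kinases, 0 passed, with a median of -0.51. In all 3 pairs 8 were lower, against 19.3% of all genes tested, and 1 was higher, against 16.9%. Sass6, the cartwheel protein assembled downstream of Plk4, differed by -0.66 (SE 0.17), Pkmyt1, an inhibitory kinase of Cdk1, by -0.51 (SE 0.18) and Cdc25c, a phosphatase that activates Cdk1, by -0.72 (SE 0.28). These 3 had the smallest p-values of the list; over the whole list, every unstable line lay below every stable line in 5 of the 9 genes, against 6.41% of all genes tested. The exception in direction was Plk2, a Polo kinase known as a p53 target, which is named here after its values were seen. It measured 10.23, 10.39 and 10.42 in the unstable lines (9515, 9938, 10074, in this order), against 10.01, 10.22 and 10.06 in the stable lines, so its groups did not overlap in the other direction, as in 3.54% of all genes tested. Its difference of 0.25 (SE 0.10) did not pass (limma adjusted p = 0.999).

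Of 6 tested Aurora A partners and substrates, 0 passed and 4 were lower in all 3 pairs, against 19.3% of all genes tested. The 6 had a median of -0.29. Ajuba, a LIM protein that activates Aurora A, was higher in all 3 pairs (0.073, 0.19 and 0.24), with a difference of 0.17 (SE 0.26), and is named here after its values were seen. Hmmr, which binds spindle microtubules, differed by -0.65 (SE 0.30), Kif11, the spindle-separating kinesin, by -0.60 (SE 0.39) and Tacc3, an Aurora A substrate on spindle microtubules, by -0.46 (SE 0.25). Of 11 tested other mitotic kinases and cyclins 0 passed and 8 were lower in all 3 pairs, against 19.3% of all genes tested. The 11 had a median of -0.52. Among the 8 were Cdk1 at -0.41 (SE 0.15), its activator Cdc25b at -0.61 (SE 0.23) and the B-type cyclin gene Ccnb2 at -0.67 (SE 0.27). The 3 that were not lower were Nek6, Nek7 and Nek9, relatives of Nek2, which differed by 0.0037, 0.073 and 0.071 and are named here after their values were seen. Of 6 tested genes of the ubiquitin machinery that acts on Aurora and Polo kinases, 0 passed, with a median of -0.13. Only 1 was lower in all 3 pairs, near the share of 19.3% of all genes tested. Cdc20 itself differed by -0.57 (SE 0.20), Ube2c by -0.40 (SE 0.22) and Ube2s by -0.23 (SE 0.16). Btrc and Fbxw7, F-box subunits of ubiquitin ligases, were higher on group means, by 0.21 (SE 0.23) and 0.16 (SE 0.16), and are named here after their values were seen.

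General markers of proliferation were, on their mean level, also highest in the stable line of pair 9938 and lowest in the unstable line of pair 10074. Of 8 tested, 0 passed and 8 were lower in all 3 pairs, against 19.3% of all genes tested. Their median was -0.53, and by pair it was -0.22 in 9515, -0.62 in 9938 and -0.67 in 10074. Mcm5, a subunit of the replicative helicase, differed by -0.73 (SE 0.23), Top2a, a topoisomerase of dividing cells, by -0.56 (SE 0.18) and Pcna, the replication clamp, by -0.29 (SE 0.11). Whether the members differ by more than the share of dividing cells was not tested. The 10 fibroblast markers had a median of 0.016, but single markers moved, such as Dcn by 1.39 in pair 9515 and Lum by -0.89 in pair 10074.

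**Figure D4:**
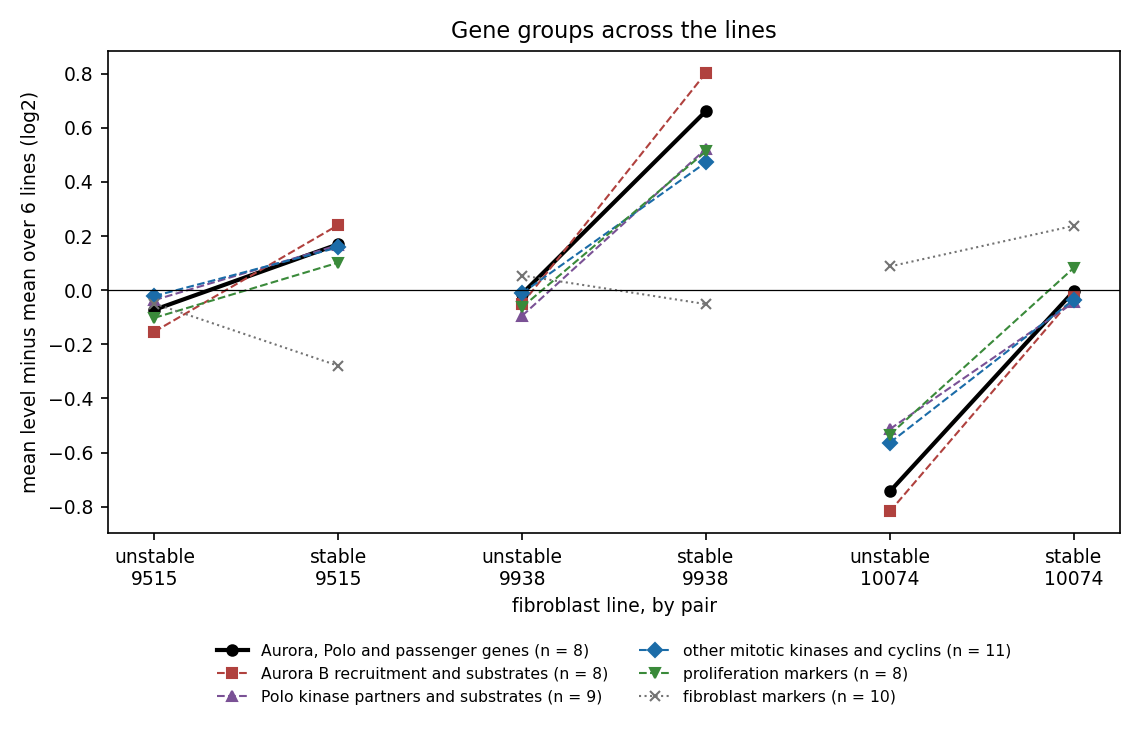
Mean log2 level of 6 gene groups in each line (vertical axis), relative to each gene's mean over the 6 lines; the horizontal axis gives the lines by pair, and segments join the lines of a pair. The Aurora, Polo and passenger genes (black) follow the other mitotic groups and the proliferation markers. Their highest value is in the stable line of pair 9938 and their lowest in the unstable line of pair 10074. The fibroblast markers lie between -0.28 and 0.24. They are higher in the unstable than in the stable line of pairs 9515 and 9938, and lower in that of pair 10074.

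The genes whose levels most resembled the mean profile of the 8 members over the 6 lines, among 1839 other genes with an SD of at least 0.3, were Ndc80 (Pearson r = 0.999), Trip13, Smc2, Nuf2, Lmnb2, Ncaph, Kif4, Kif2c, Kif23 and Fignl1 (r = 0.994), with Spearman correlations of 0.83 to 1.00. Of the 1839, 160 had r above 0.9, so a profile of this shape was common. Ndc80 and Nuf2, which form the microtubule-binding Ndc80 complex of the kinetochore, differed by -0.66 (SE 0.32) and -0.76 (SE 0.34), and Smc2 and Ncaph, condensin subunits, by -0.45 (SE 0.23) and -0.48 (SE 0.21). Of the 10, Lmnb2 encodes a nuclear lamin and differed by -0.57 (SE 0.28). None of the 10 passed the limma test (adjusted p = 0.999).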

How the data were processed

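RNA of 6 fibroblast lines was hybridised to Affymetrix mouse arrays. GCRMA 2.28.0, run in R 2.15.3, is named in the submitters' processing notes as what the authors used. The table they deposited holds log2 values (0.922 to 14.393), background-corrected and normalized to a common distribution, so that overall differences in array brightness are removed. They were used without transformation; precision is limited by the number of arrays.

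Of 22626 probe sets 20380 had 1 gene symbol in the platform annotation, and for 20351 of these the Entrez identifier was found in the RefSeq table of GRCm38.p6. Each of 12393 genes was represented by its probe set with the highest mean, and the 8382 genes that reached a log2 value of 4 in 3 or more lines entered two-sided moderated tests (limma 3.58.1 under R 4.3.3, lmFit followed by eBayes), with Benjamini-Hochberg adjustment and a threshold of 0.05. BubR1 and CDC20 effects came from a 4-group fit. With 3 lines a group no permutation test was used. The code was tested on simulated data. The members and gene lists were chosen with earlier results of these data known; named partners are the 3 smallest p of each list.

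Deviations of same-numbered lines from their group means correlated at 0.81, 0.68 and 0.60 across genes for pairs 9515, 9938 and 10074, against -0.67 to 0.15 for other numbers, so the numbers, taken from the titles, were treated as pairs. Alternatives were other filters, probe set choices, normalizations, variance models, the pair as a block, and leaving out each line or pair.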

Additional observations from a re-analysis of the deposited data

How the results depend on the processing

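The counts of genes called (0 in the unstable against stable, the BubR1 and the effect-difference comparisons) stayed 0 under all 18, 16 and 13 alternatives run, the replicate block included, with smallest adjusted p-values of 0.262, 0.219 and 0.306 by limma in the blocked fits. Leaving out either or both lines of pair 10074 cannot change the BubR1 contrast, so 13 of those 16 bear on it. Each of the 8 tested members kept its direction in all alternatives in which it was fitted. Other filters, the trend and robust variance model, the fit of every probe set and the block with all lines cannot change a member's difference. These alternatives therefore do not bear on its direction. The members' median difference of -0.56 ranged from -0.71 to -0.29 when single lines or pairs were left out. It ranged from -0.56 to -0.52 otherwise, and was -0.56 with the pair as a block. The count of members at an unadjusted p under 0.05 was 8 with the replicate block and 0 with no replicate block; with the block and 1 pair left out, an alternative chosen after seeing the data, it was 5 to 8. With all lines, the block left the difference of each member unchanged and gave each a smaller SE. The SE went from 0.43 to 0.15 for Plk1 and from 0.17 to 0.16 for Tpx2. Why the count changed with the pair left out was not tested. Nek2 had no value with a floor of 6, and Plk3 entered only without the filter. The BubR1 contrast without pair 9515 or 9938, and the effect difference without a CDC20 line or any pair, left no fit with residual spread. Signal over background limits Plk3, 1 Incenp probe set and Nek2, which lay nearest to the floor.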
